A study of Homo sapiens with 12 samples.

Results

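The interferon-stimulated genes are genes that cells switch on once interferon binds its receptor, and 43 of them were followed across 12 Affymetrix arrays of lymphoma cell lines. The members were taken by gene symbol and grouped by the role of their products. Each was read from 1 probe set, the one whose level averaged highest, among probe sets that the array annotation ties to that gene alone. Such a probe set was listed for 42 members, out of 18239 genes in all, and the level of STAT2 was not analysed here. A gene was tested when its log2 level exceeded 4.20, the 40th percentile of all values, on at least 3 arrays, and 38 members and 13120 genes in all met this. The members left out were HERC5, the main ISG15 ligase, at 3.24 to 3.63 over the 12 arrays, RSAD2, the antiviral enzyme viperin, at 3.43 to 4.04, CMPK2, a mitochondrial nucleotide kinase, at 3.60 to 3.96, and LGALS3BP, a secreted glycoprotein, at 3.38 to 4.00.

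The arrays came from OCI-LY3, OCI-HBL1 and OCI-LY10, 3 established human lines of diffuse large B cell lymphoma of the activated B cell-like type, and the study's title concerns such lymphomas with a mutated MYD88. Each line gave 1 array per treatment, so a treatment group holds 3 lines and no repeated culture of a line. The p-values set the mean change over the 3 lines against 1 spread per gene, estimated from all 12 arrays and all 4 treatments. They do not measure how alike the lines responded to 1 treatment. Combo cells received 500 nM CPI203, for 18 h by the treatment protocol, and 50 µM IRAKi for 6 h, and carry a 24 h time label; the order of the drugs is not stated. CPI203 cells received 500 nM CPI203 and are also labelled 24 h. IRAKi cells received 50 µM IRAKi and are labelled 6 h. Control cells are labelled 24 h, and the labels do not say what they received. CPI203 is an inhibitor of the BET bromodomain proteins, readers of acetylated chromatin that help RNA polymerase leave promoters, and IRAKi inhibits the kinases IRAK1 and IRAK4, which carry signals from MYD88. The IRAKi arrays have no Control of their own time, so drug and time cannot be told apart there. Each line is a single model of the disease.

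Type I interferon binds the receptor pair IFNAR1 and IFNAR2, and the kinases attached to it activate a complex of STAT proteins with IRF9. That complex enters the nucleus and binds a short promoter motif, the interferon-stimulated response element, beside the genes described here. Their products sense foreign nucleic acid, cut or block viral RNA, hold back viral particles or amplify the signal itself. In lymphoma of this type, mutated MYD88 is known to drive both NF-κB activity and autocrine interferon signalling.

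Promoter sequence shows the motif that ties many members together. RefSeq promoters of GRCh38.p14, each running from 250 bases before an annotated start to 50 after it, were listed for 35 of the 43 members, STAT2 included, and searched on both strands for GAAANNGAAA, the core of the response element, with overlapping matches counted. The motif was present in a promoter of 25 of these 35 members (71.4%), against 4.38% of 27305 genes with a listed promoter. The gamma-activated site, searched as TTCNNNGAA, was present in 10 of the 35 (28.6%), against 9.38% of all genes. A match is a description of these letters and does not show that a factor binds there. No promoter is listed for IRF7, USP18, OAS2, OASL, IFIT2, MX2, TRIM22 or IFITM2. These 6 promoters belong to members whose values are given later, 5 with the motif and 1 without. They are printed 5′ to 3′ on the strand of the gene, and capitals mark the motif or its reverse complement. DTX3L lies at chr3:122564088-122564387 on the plus strand and its match is shared with PARP9, which runs the other way from an overlapping promoter.
DTX3L: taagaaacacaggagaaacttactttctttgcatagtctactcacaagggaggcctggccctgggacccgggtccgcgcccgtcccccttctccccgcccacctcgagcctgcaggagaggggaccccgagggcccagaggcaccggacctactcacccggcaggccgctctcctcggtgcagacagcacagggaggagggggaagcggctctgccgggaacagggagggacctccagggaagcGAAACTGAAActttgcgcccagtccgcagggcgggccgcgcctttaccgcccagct
PARP14, a neighbour on the same chromosome, lies at chr3:122680589-122680888 on the plus strand.
PARP14: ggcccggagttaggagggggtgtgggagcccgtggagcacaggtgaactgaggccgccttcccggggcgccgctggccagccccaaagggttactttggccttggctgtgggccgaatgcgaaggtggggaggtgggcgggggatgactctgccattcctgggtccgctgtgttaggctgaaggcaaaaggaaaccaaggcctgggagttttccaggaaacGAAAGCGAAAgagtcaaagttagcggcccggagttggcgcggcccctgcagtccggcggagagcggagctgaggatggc
EIF2AK2 lies at chr2:37156931-37157230 on the minus strand, and its match spans the annotated start.
EIF2AK2: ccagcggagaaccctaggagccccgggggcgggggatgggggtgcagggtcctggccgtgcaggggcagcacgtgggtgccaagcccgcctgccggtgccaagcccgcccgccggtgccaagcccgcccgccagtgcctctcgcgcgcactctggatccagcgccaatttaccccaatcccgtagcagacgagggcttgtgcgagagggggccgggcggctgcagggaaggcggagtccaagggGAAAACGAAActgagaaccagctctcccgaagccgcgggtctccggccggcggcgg
IFIT5 lies at chr10:89414318-89414617 on the plus strand and has 3 matches, all on the other strand.
IFIT5: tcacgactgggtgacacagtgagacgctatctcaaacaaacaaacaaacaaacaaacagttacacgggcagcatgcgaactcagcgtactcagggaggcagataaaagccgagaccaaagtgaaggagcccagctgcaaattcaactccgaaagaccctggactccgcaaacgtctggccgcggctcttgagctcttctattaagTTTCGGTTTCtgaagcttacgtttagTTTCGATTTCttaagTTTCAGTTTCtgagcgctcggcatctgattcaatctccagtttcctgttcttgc
ISG15 lies at chr1:1013247-1013546 on the plus strand and has 2 matches that overlap.
ISG15: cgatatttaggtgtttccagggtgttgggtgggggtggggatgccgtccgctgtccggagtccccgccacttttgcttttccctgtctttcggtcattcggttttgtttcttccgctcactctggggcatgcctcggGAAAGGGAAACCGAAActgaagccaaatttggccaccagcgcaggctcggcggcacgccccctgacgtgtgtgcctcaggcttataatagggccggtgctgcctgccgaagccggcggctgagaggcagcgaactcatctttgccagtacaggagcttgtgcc
SAMD9L lies at chr7:93148336-93148635 on the minus strand and has no match in this window.
SAMD9L: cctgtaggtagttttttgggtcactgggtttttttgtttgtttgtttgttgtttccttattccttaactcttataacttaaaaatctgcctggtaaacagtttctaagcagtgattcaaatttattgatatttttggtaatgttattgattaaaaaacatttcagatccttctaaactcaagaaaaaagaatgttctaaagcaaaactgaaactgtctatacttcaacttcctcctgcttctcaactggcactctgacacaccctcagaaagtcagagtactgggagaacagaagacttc

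**Figure D1:**
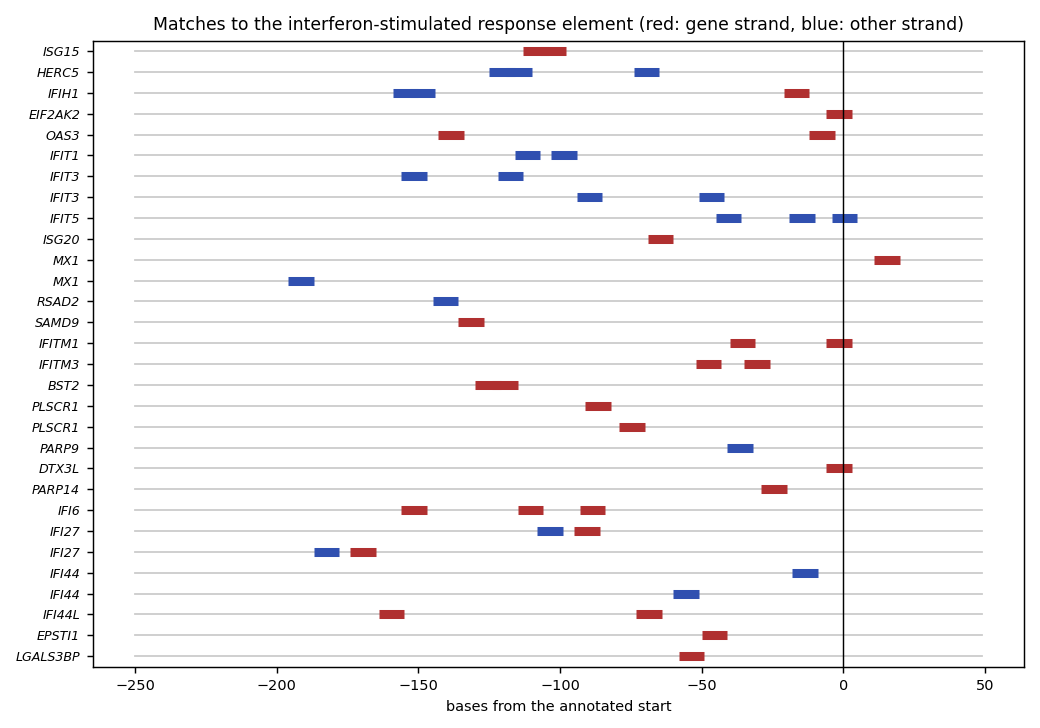
Position of each match to the response element core in member promoters, in bases from the annotated start (x axis), with 1 row per promoter that holds a match, so that a gene with 2 annotated starts has 2 rows. Red bars are matches on the strand of the gene and blue bars matches on the other strand, and the grey line is the window searched; IFI6, IFIT5, IFIH1 and HERC5 had 3 matches in a window.

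The deposited values are log2 levels after RMA, and array medians lay between 4.64 and 4.73. Pairs of arrays correlated at 0.923 to 0.991. The OCI-LY10 IRAKi array stood apart in its non-specific control probe sets, whose mean level was 4.00 against 3.64 to 3.79 on the other 11 arrays. The B cell markers CD79A, CD79B, MS4A1, PAX5 and CD22 were above the filter level on all 12 arrays, and their mean per array was 8.84 to 9.41 in Combo, 8.97 to 9.43 in CPI203, 9.25 to 9.48 in IRAKi and 9.40 to 9.63 in Control. Of these, MS4A1 fell with CPI203 by 0.75 and with Combo by 0.60, and CD79B fell with Combo by 1.39; the part of this shift in the results on the members was not tested. Markers of other cells passed the filter in 4 of 7 for T and NK cells, 1 of 5 for myeloid cells and 0 of 4 for fibroblasts, and their list means per array were 3.95 to 4.31, 3.62 to 4.33 and 3.70 to 3.96. CD3D, CD8A, CSF1R, FCGR3A, DCN and LUM were below the filter level on every array, whereas the cytotoxic granule gene GNLY was above it on all 12 arrays, at 4.48 to 5.44, the myeloperoxidase gene MPO on 10, at 4.12 to 4.84, and CD3G on 8, at 4.05 to 4.92. Of 3 markers of plasmacytoid dendritic cells, which secrete interferon, 2 passed, with list means of 3.73 to 6.00; CLEC4C reached 4.24 at most, and LILRA4 passed the filter level on the 4 OCI-HBL1 arrays only, at 8.60 to 10.14. Probe sets of poly-A spike-ins, control RNA added during preparation, stood higher than in Control by 0.48 ± 0.27 in Combo, 0.30 ± 0.17 in CPI203 and 0.22 ± 0.03 in IRAKi on the log2 scale (SD, n = 3 lines). In such bulk samples, fewer cells of a type and less RNA per cell cannot be told apart.

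With CPI203 alone, many of these genes were lower in every line. Of the 38 members tested, 19 fell and 0 rose at an adjusted p under 0.05 (limma on log2 levels with cell line as a term, Benjamini-Hochberg over 13120 genes), and 28 had an unadjusted p under 0.05, against 28.3% of all genes. Over all genes tested, 6.21% fell and 6.92% rose by the same rule. The median log2 change of the members was -0.84, against 0.01 over all genes tested. A drop in all 3 lines was seen for 32 members, against 25.2% of all genes, and 16 members were at least 2-fold lower on average, against 2.16%. Of the 38, 27 were above the filter level on all 12 arrays and 11 passed it on 3 to 11 arrays only; of those 11, 3 fell with CPI203. Leaving out OCI-LY3, OCI-HBL1 or OCI-LY10 left 7, 8 and 7 members called, and 0 when cell line was left out of the fit. The share of all genes called in these refits is not given.

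**Figure D2:**
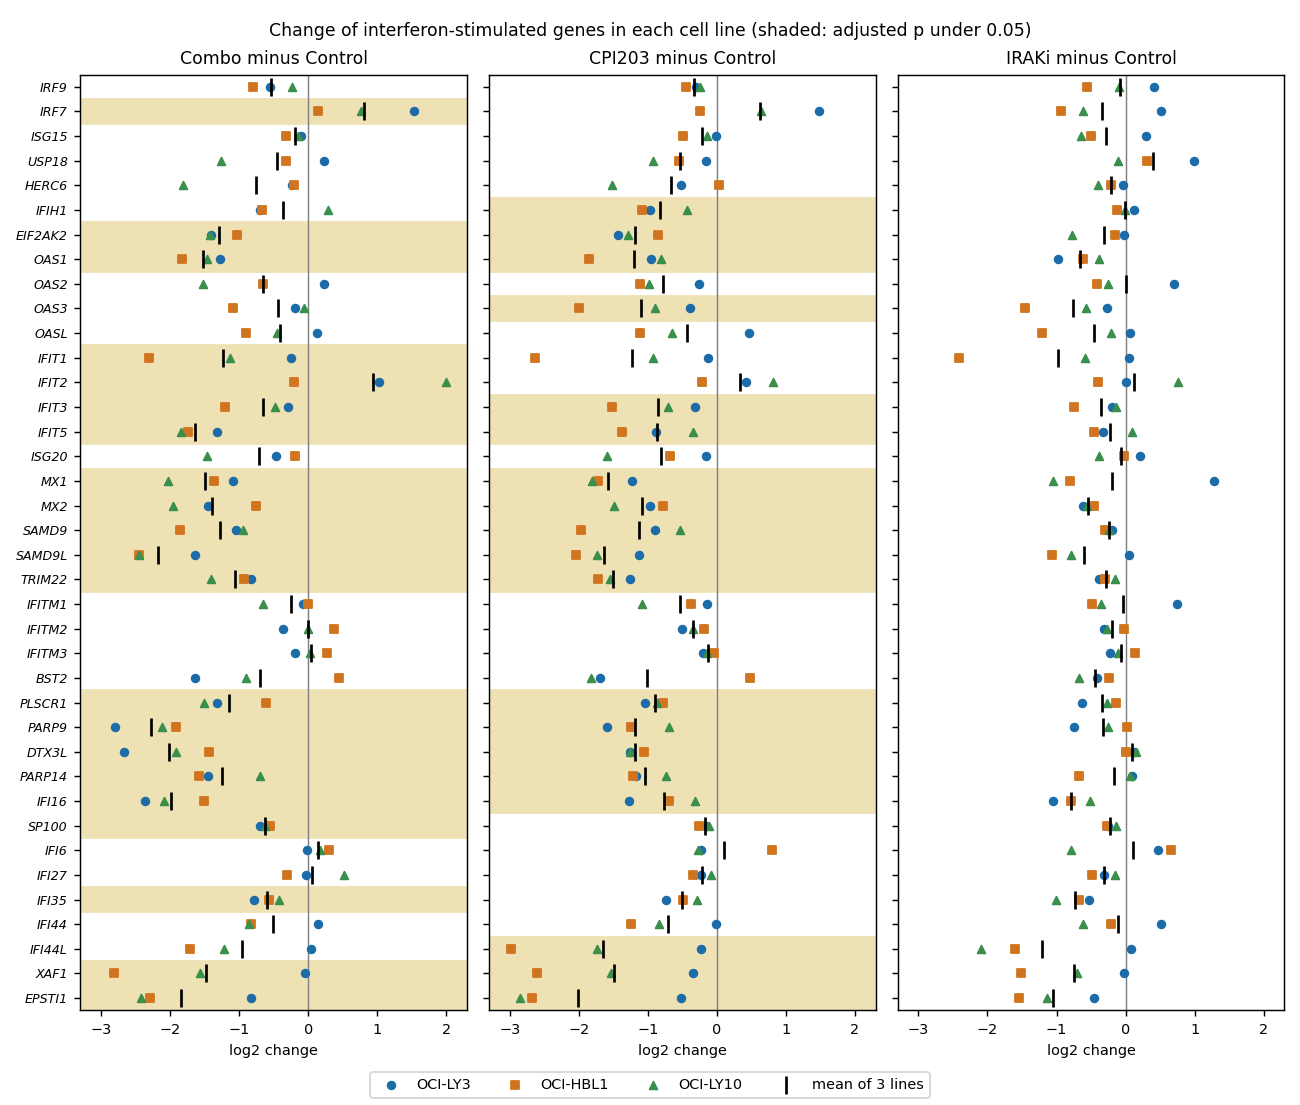
Log2 change of each of the 38 tested members (rows, grouped by role) in Combo, CPI203 and IRAKi against Control, with 1 symbol per cell line and a bar for the mean of the 3 lines; shading marks an adjusted p under 0.05. CPI203 has 19 shaded rows, all to the left of 0, Combo has 19 to the left and 2 to the right (IRF7 and IFIT2, not called under spike-in scaling), and IRAKi has 0.

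Among the GTPases and intracellular restriction factors, all 5 members tested fell with CPI203, with log2 changes from -1.64 to -1.08. TRIM22, a RING-finger protein that restricts several viruses, had log2 levels of 9.70, 7.48 and 9.50 in CPI203 cells of OCI-LY3, OCI-HBL1 and OCI-LY10, the order kept throughout, against 10.96, 9.20 and 11.05 in Control. Each line was lower with CPI203, although the 2 groups overlapped because OCI-HBL1 was low throughout. The log2 change was -1.51 ± 0.17 (SE, limma, adjusted p = 0.00144). SAMD9L, a cytoplasmic inhibitor of translation and growth, had 5.37, 4.94 and 7.72 with CPI203, against 6.51, 6.99 and 9.46 in Control. Its log2 change was -1.64 ± 0.19 (limma, adjusted p = 0.00185), with every line lower and the groups overlapping through OCI-LY10. MX1, the dynamin-like GTPase that traps viral nucleocapsids, had 4.25, 8.97 and 7.95 with CPI203, against 5.48, 10.69 and 9.75 in Control. OCI-LY3 lay far below the other lines in both groups, and the change was -1.58 ± 0.38 (limma, adjusted p = 0.0251). MX2, its relative at nuclear pores, and SAMD9, the neighbour of SAMD9L, changed by -1.08 and -1.13.

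The ADP-ribosylation genes also fell without exception, 3 of 3. DTX3L, a ubiquitin ligase, and PARP9, its partner in a complex that marks ubiquitin and histones, share a divergent promoter, shown above. DTX3L stood at 8.08, 6.95 and 7.66 with CPI203, against 9.34, 8.01 and 8.91 in Control, a change of -1.19 ± 0.22 (limma, adjusted p = 0.0103). PARP9 stood at 7.43, 6.28 and 7.99 with CPI203, against 9.02, 7.53 and 8.69 in Control, a change of -1.18 ± 0.20 (limma, adjusted p = 0.0067). Both dropped in each line, and the CPI203 and Control ranges overlapped. PARP14, a mono-ADP-ribosyltransferase, stood at 9.08, 6.85 and 8.32 with CPI203, against 10.25, 8.06 and 9.06 in Control. Its change was -1.04 ± 0.19 (limma, adjusted p = 0.00988), and again every line was lower. The chosen DTX3L probe set is of a type that can match several transcripts, and with such probe sets left out, the remaining one, of mean level 4.53, had a change of -1.05 (limma, adjusted p = 0.0565).

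Of the 11 RNA sensors and RNA-binding effectors, 6 fell with CPI203, 0 rose and 5 did not pass. EIF2AK2, the kinase PKR that halts translation when it binds double-stranded RNA, had log2 levels of 6.39, 8.11 and 8.12 with CPI203, against 7.82, 8.96 and 9.41 in Control. All 3 lines were lower, with OCI-LY3 the lowest in each group, and the change was -1.19 ± 0.18 (limma, adjusted p = 0.00436). IFIT5, which binds the triphosphate end of RNA, had 5.70, 6.18 and 6.41 with CPI203, against 6.58, 7.55 and 6.75 in Control. Here the groups did not overlap, and the change was -0.87 ± 0.22 (limma, adjusted p = 0.0304). The other IFIT5 probe set changed by -0.43 and was not called in a fit over single probe sets (limma, adjusted p = 0.159). OAS1 and OAS3, enzymes whose product activates RNase L, changed by -1.21 and -1.10, and IFIH1, the cytoplasmic RNA sensor MDA5, by -0.83. The other tested OAS3 probe set, of mean level 4.09, changed by -0.02 in a fit over single probe sets (limma, adjusted p = 0.973). IFIT3, a partner of IFIT1, was called lower but lay below the filter level on all 3 CPI203 arrays and 1 Control array, so the size of its drop is not given. OAS2, OASL, which lacks synthetase activity, the RNA-end binder IFIT1, IFIT2 and the exonuclease ISG20 did not pass, with log2 changes between -1.23 and 0.34. In a fit over single probe sets, a further OAS2 probe set was called lower, at -1.05 (limma, adjusted p = 0.0162), and its others were not. With Combo that probe set and another were called, at -1.32 and -1.38 (limma, adjusted p = 0.00167 and 0.0181), but not the one chosen here. IFIT2 had 3.85, 3.61 and 4.73 with CPI203, against 3.43, 3.83 and 3.91 in Control.

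Members of the signalling group and the ISG15 system did not pass with CPI203. IRF9, the DNA-binding subunit of the interferon-activated complex, had 8.77, 8.84 and 9.13 with CPI203, against 9.06, 9.28 and 9.37 in Control. The difference was small and of 1 sign in the 3 lines, -0.33 ± 0.18 (limma, adjusted p = 0.279). A further IRF9 probe set was called lower in a fit over single probe sets, at -0.50 (limma, adjusted p = 0.0433), and its others were not. IRF7, a factor that switches on interferon genes, had 8.28, 7.37 and 9.10 with CPI203, against 6.81, 7.61 and 8.46 in Control. It was higher in OCI-LY3 and OCI-LY10 and lower in OCI-HBL1, with a change of 0.62 ± 0.27 (limma, adjusted p = 0.168). ISG15, a ubiquitin-like protein attached to other proteins, had 6.49, 9.16 and 8.99 with CPI203, against 6.50, 9.66 and 9.14 in Control. Its change was -0.22 ± 0.18 (limma, adjusted p = 0.49), smaller than the gap of OCI-LY3 to the other lines. USP18, which removes ISG15 and restrains the receptor, and HERC6, a ligase for ISG15 in mouse, did not pass, at -0.54 and -0.67. The promoter motif occurred on both sides of the threshold. It was present in 13 of the 17 members that fell with CPI203 and have a listed promoter, and in 9 of the 13 that did not pass.

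Of the remaining groups, 1 of 5 membrane proteins fell with CPI203, the scramblase PLSCR1 with a log2 change of -0.90. BST2, the tetherin that holds budding virus at the cell surface, differed by -1.69, 0.48 and -1.82 in the 3 lines and did not pass. IFITM1, IFITM2 and IFITM3, which block fusion of viral and cell membranes, are close paralogs read by probe sets that can cross-hybridise, and their changes lay between -0.54 and -0.13. The DNA sensor gene IFI16 fell by 0.77 (limma, adjusted p = 0.0378). SP100, a scaffold of nuclear bodies, did not pass, at -0.18. A further SP100 probe set was called lower in a fit over single probe sets, at -0.57 (limma, adjusted p = 0.0216), and its others were not. Of the 7 tested members with other roles, 3 fell. EPSTI1, named for its induction by contact of epithelial and stromal cells, changed by -0.51, -2.68 and -2.86 in the 3 lines, with a mean of -2.02 ± 0.38 (limma, adjusted p = 0.0103). OCI-LY3, where its Control level of 4.89 was the nearest of the 3 to the filter level, had the smallest drop. The OCI-LY10 CPI203 array, at 4.14, was below the filter level, which limits the size of the drop there. XAF1, an antagonist of the apoptosis inhibitor XIAP, and IFI44L changed by -1.50 and -1.65, IFI44L being below the filter level on 2 CPI203 arrays and 1 Control array. IFI6, IFI27, IFI35 and IFI44 did not pass.

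**Figure D3:**
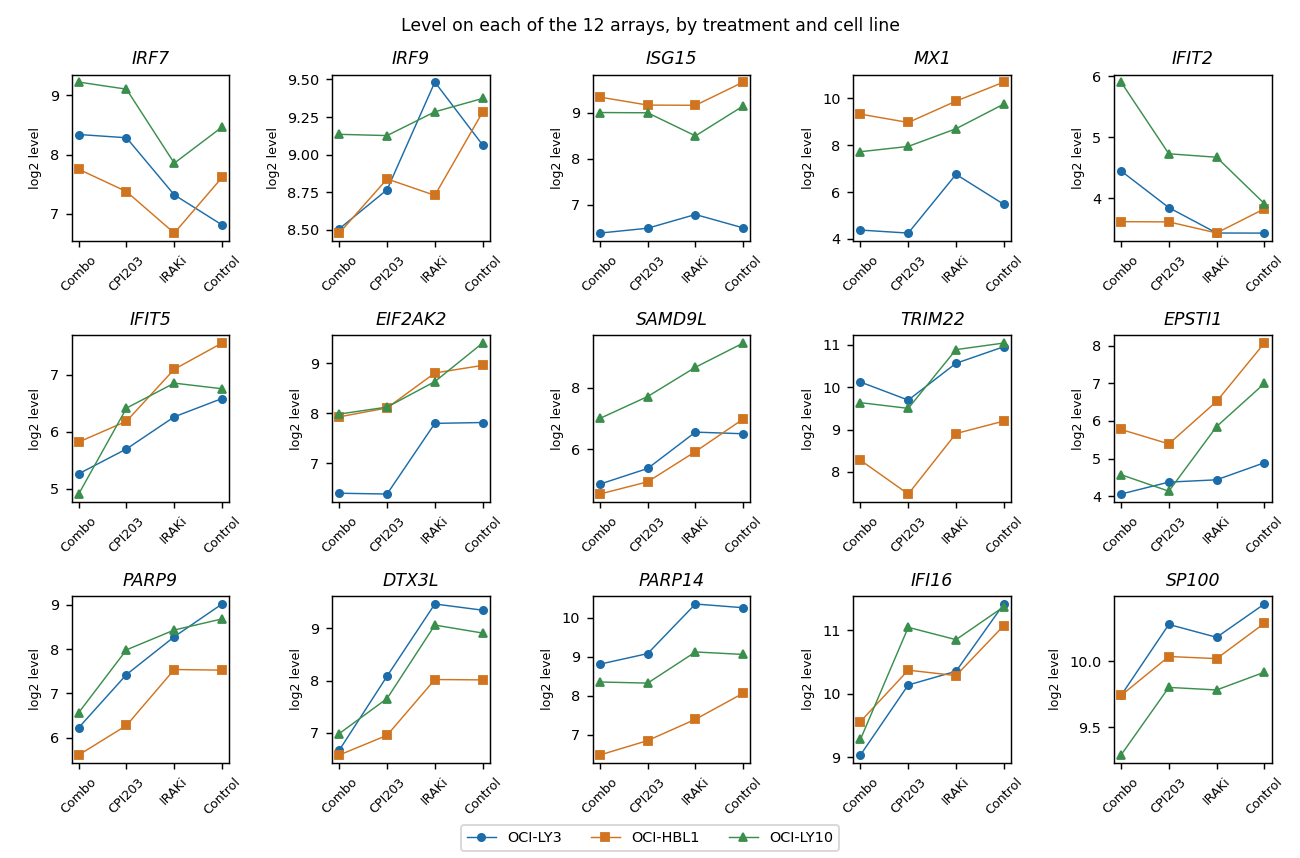
Log2 level of 15 members on each of the 12 arrays, with treatment on the x axis, 1 line of symbols per cell line, and a separate y axis per gene because levels of different probe sets are not comparable. PARP9, DTX3L, IFI16 and SAMD9L stand lowest in Combo in each cell line, and TRIM22 stands lowest in CPI203 in each cell line.

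With Combo the same number of members fell, but the set differed in part and 2 members rose. Of the 38, 19 fell, 2 rose and 17 did not pass, where 16.7% of all genes tested fell and 15.4% rose. The median change was -0.70, against -0.00312 over all genes, and 25 members were lower in all 3 lines, against 27.8% of all genes. The Combo and CPI203 comparisons share the Control arrays. Of the members, 16 fell in both, IFIH1, OAS3 and IFI44L in the CPI203 comparison alone, and IFIT1, SP100 and IFI35 in the Combo comparison alone. Those last 6 rest on 2 separate thresholds and on 1 probe set per gene. The direct test of Combo against CPI203 is given further on. Scaling by the spike-ins put the median change of all genes at -0.48 in Combo, -0.22 in IRAKi and -0.29 in CPI203. With Combo 32 members then fell and 0 rose, but the share of all genes that did so under this scaling is not given. This scaling shifts all genes of an array alike, so it could not change the members' median relative to all genes, -0.70.

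PARP9, SAMD9L, DTX3L and IFI16 had the most negative log2 changes with Combo. PARP9 had log2 levels of 6.22, 5.61 and 6.57 in Combo, against 9.02, 7.53 and 8.69 in Control. No Combo array reached the lowest Control array, and the change was -2.28 ± 0.20, a 4.85-fold drop (limma, adjusted p = 9.46e-05). DTX3L had 6.67, 6.58 and 6.99 in Combo, against 9.34, 8.01 and 8.91 in Control. These groups were also apart, with a change of -2.01 ± 0.22 (limma, adjusted p = 0.000265). IFI16, which senses nuclear and cytoplasmic DNA, had 9.04, 9.56 and 9.28 in Combo, against 11.41, 11.07 and 11.37 in Control. The lines were close to each other within each group, and the change was -1.99 ± 0.20 (limma, adjusted p = 0.000208). All 3 tested probe sets of PARP9 and of IFI16 fell with Combo, those of IFI16 all being of the type that can match several transcripts.

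SAMD9L had 4.87, 4.54 and 7.01 in Combo, against 6.51, 6.99 and 9.46 in Control, a change of -2.18 ± 0.19 (limma, adjusted p = 0.000105), and OCI-LY10 kept the groups overlapping. IFIT5 had 5.26, 5.82 and 4.91 in Combo, against 6.58, 7.55 and 6.75 in Control. Its groups did not overlap, and the change was -1.63 ± 0.22 (limma, adjusted p = 0.000603). The other IFIT5 probe set changed by -0.81 and was called in a fit over single probe sets (limma, adjusted p = 0.00803). EIF2AK2 had 6.40, 7.93 and 7.99 in Combo, against 7.82, 8.96 and 9.41 in Control, a change of -1.29 ± 0.18 (limma, adjusted p = 0.000727). Combo and CPI203 levels of EIF2AK2 differed by only 0.02, -0.18 and -0.14 in the 3 lines. TRIM22 had 10.12, 8.28 and 9.64 in Combo, a change against Control of -1.06 ± 0.17 (limma, adjusted p = 0.0013). MX1 had 4.38, 9.32 and 7.72 in Combo and a change of -1.50 ± 0.38 (limma, adjusted p = 0.0136). PARP14, OAS1, XAF1 and EPSTI1 also fell, by 1.25, 1.52, 1.48 and 1.85, and so did MX2, SAMD9 and PLSCR1, by 1.39, 1.28 and 1.15. IFI35 fell by 0.59 and was lower in all 3 lines. IFIT1 and IFIT3 were also called lower, but the size of these drops is not given. IFIT1 was below the filter level on all 3 Combo arrays and 1 Control array, and IFIT3 on 2 Combo arrays and 1 Control array. IFIT1 was above it on 3 arrays only, Control of OCI-HBL1 and OCI-LY10 among them. Without the Control arrays IFIT1 would not have been tested, so its call rests on the group where it is high. By role, 5 of 5 GTPases and restriction factors, 3 of 3 ADP-ribosylation genes, 2 of 2 nuclear proteins, 5 of 11 RNA-binding members, 1 of 5 membrane proteins and 3 of 7 members with other roles fell. SP100, at 9.74, 9.74 and 9.29 in Combo against 10.44, 10.29 and 9.92 in Control, had a change of -0.63 ± 0.10 without overlap (limma, adjusted p = 0.00145).

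IRF7 and IFIT2 were the members called higher with Combo. IRF7 had 8.34, 7.75 and 9.22 in Combo, against 6.81, 7.61 and 8.46 in Control. The 3 lines were higher by 1.53, 0.14 and 0.76, the groups overlapped, and the change was 0.81 ± 0.27 (limma, adjusted p = 0.0475). IFIT2, an RNA-binding relative of IFIT1, had 4.45, 3.62 and 5.90 in Combo, against 3.43, 3.83 and 3.91 in Control. OCI-LY3 and OCI-LY10 were higher and OCI-HBL1 was lower, while all 3 Control arrays were below the filter level. The change was 0.93 ± 0.31 (limma, adjusted p = 0.0433). IFIT2 was above the filter level on 4 arrays, Combo of OCI-LY3 and OCI-LY10 among them. Without the Combo arrays it would not have been tested, so its call rests on the group where it is high. Without OCI-LY3 the changes of IRF7 and IFIT2 were 0.45 and 0.89, and without OCI-LY10 they were 0.83 and 0.40, none of them called. Without OCI-HBL1 they were 1.14 and 1.503, both called (limma, adjusted p = 0.0239 and 0.00774). With the mean of its 2 probe sets IFIT2 changed by 0.51 and was not called (limma, adjusted p = 0.0584). Neither call held when arrays were scaled to the spike-ins (0.33 and 0.46, adjusted p = 0.31 and 0.165 in limma) or in the fit without the OCI-LY10 IRAKi array (adjusted p = 0.055 and 0.0557). IRF9 had 8.51, 8.48 and 9.13 in Combo and a change of -0.53 ± 0.18, which missed the threshold (limma, adjusted p = 0.0512). The call for IRF9 depended on the setting: it passed with the mean of its probe sets (-0.57, adjusted p = 0.0138 in limma), the stricter filter (0.0384), cyclic loess (0.0465), a trended robust variance (0.0209) and spike-in scaling (-1.01, adjusted p = 0.00227). Of its 4 probe sets, 2 were called lower in a fit over single probe sets. ISG15 had 6.39, 9.34 and 9.00 in Combo and a change of -0.19 ± 0.18 (limma, adjusted p = 0.467).

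Whether the IRAK inhibitor added to CPI203 was asked directly by comparing Combo with CPI203 alone. Of the 38 members, 3 were lower in Combo and 0 higher, where 2.71% of all genes tested were lower and 1.96% higher, and 10 had an unadjusted p under 0.05, against 20.8% of all genes. The 3 were IFI16, PARP9 and SP100. IFI16 stood at 9.04, 9.56 and 9.28 in Combo, against 10.14, 10.37 and 11.04 in CPI203 cells, without overlap, and the difference was -1.22 ± 0.20 (limma, adjusted p = 0.0158). PARP9 stood at 6.22, 5.61 and 6.57 in Combo, against 7.43, 6.28 and 7.99 in CPI203 cells, a difference of -1.10 ± 0.20 (limma, adjusted p = 0.0199). Each line was lower in Combo for both genes. SP100 was lower by 0.45 ± 0.10, with 9.74, 9.74 and 9.29 in Combo against 10.28, 10.04 and 9.80 in CPI203 cells (limma, adjusted p = 0.0379).

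Agreement in sign over the 3 lines was also counted. Lower in Combo than in CPI203 cells in all 3 lines were 7 members, against 23.2% of all genes tested. They were the 3 that passed and 4 that did not, IFI35 (-0.08), DTX3L (-0.82, limma, adjusted p = 0.0694), IFIT5 (-0.77, adjusted p = 0.0788) and SAMD9L (-0.54, adjusted p = 0.148). Higher in all 3 lines were 11 members, against 20.2%, none of which passed in limma, including OAS3 (0.65), IFIT2 (0.59), IFIH1 (0.46) and TRIM22 (0.45). The other tested probe sets of OAS3 and IFIH1, of mean level 4.09 and 4.01, differed by -0.07 and -0.06. The other probe sets of PARP9 differed by -0.04 and -0.49 and were not called, while all 3 of IFI16 were called in a fit over single probe sets. Those 3 are all of the type that can match several transcripts. In that fit 1 of 9 probe sets of SP100 was called, not the one chosen here (adjusted p = 0.0539 in limma), and a further probe set of DTX3L was called at -0.75 (adjusted p = 0.0267 in limma). When any line was left out, 0 members were called.

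**Figure D4:**
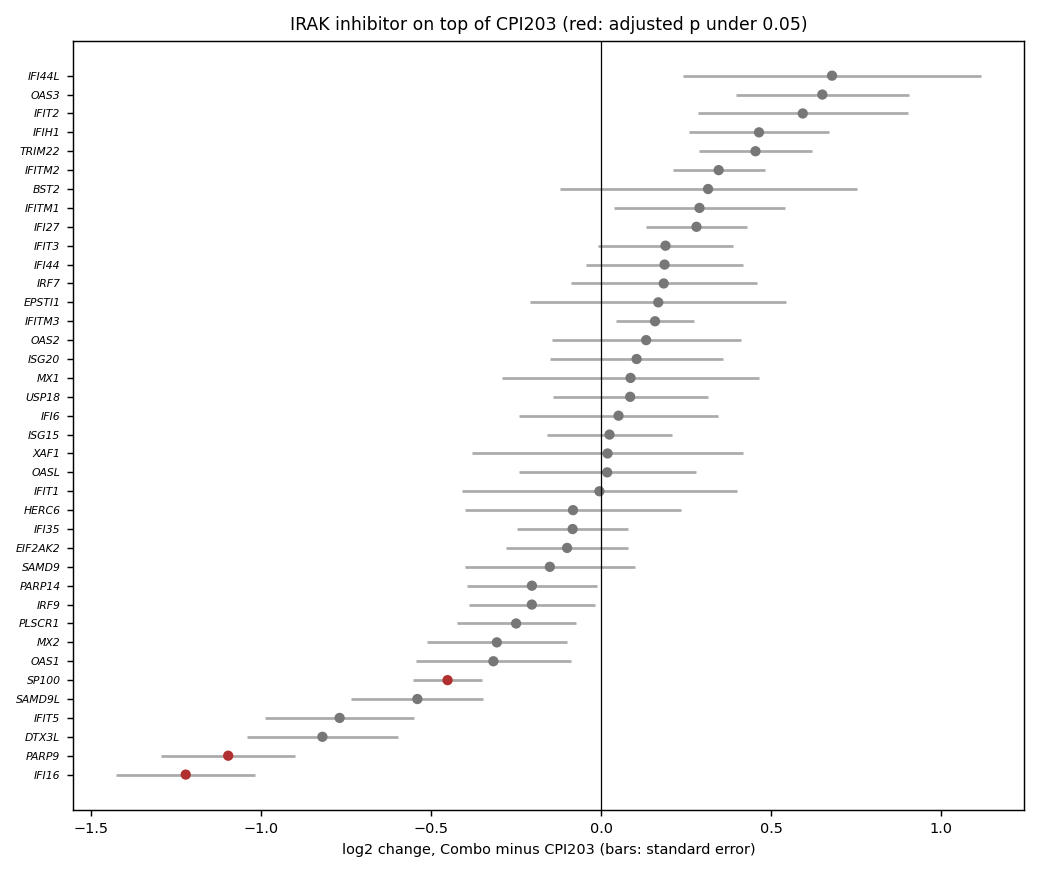
Log2 difference between Combo and CPI203 cells for the 38 tested members, ordered by size, with bars of 1 standard error; red marks an adjusted p under 0.05. IFI16, PARP9 and SP100 are the red points, and IFI44L, OAS3 and IFIT2 lie at the upper end without passing.

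The IRAK inhibitor alone left every member short of the threshold. With limma 0 of 38 passed against Control, where 0.168% of all genes did, and 9 had an unadjusted p under 0.05, against 15.4% of all genes. The members' median change was -0.28, against -0.000735 over all genes, and 17 were lower in all 3 lines, against 19.1%. IFI35 had the lowest unadjusted p (0.00129), with a change of -0.73 ± 0.16 and all lines lower (limma, adjusted p = 0.102). IFI16 came next at -0.79 ± 0.20, with 10.35, 10.29 and 10.85 in IRAKi cells against 11.41, 11.07 and 11.37 in Control. Its groups did not overlap, yet the adjusted p was 0.132 in limma. DTX3L was the member higher in all 3 lines, by 0.12, 0.01 and 0.15, where 20% of all genes were.

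The members' changes with IRAKi were also taken line by line. In OCI-LY3 the members' median change was -0.02 with 20 of 38 lower, in OCI-HBL1 -0.46 with 33 lower, and in OCI-LY10 -0.37 with 34 lower, against 43.6%, 47.9% and 57.3% of all genes. MX1 had 6.76 in IRAKi cells against 5.48 in Control of OCI-LY3, whereas it had 9.88 against 10.69 in OCI-HBL1 and 8.70 against 9.75 in OCI-LY10. USP18, OAS2 and IFITM1 also stood higher with IRAKi in OCI-LY3, by 0.99, 0.71 and 0.74. The OCI-LY3 Control levels of USP18 and IFITM1, 4.04 and 3.98, were below the filter level, which limits these 2 differences. With CPI203 the medians were -0.45, -0.96 and -0.83, and with Combo -0.51, -0.82 and -1.04. With 1 array per line and treatment, differences between lines in response were not tested.

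Set against IRAKi cells, Combo cells had 15 members lower and 1 higher, where 10.5% of all genes were lower and 8.21% higher. PARP9 and DTX3L again led, at -1.95 ± 0.20 and -2.10 ± 0.22 (limma, adjusted p = 0.000603 and 0.0007), and IRF7 was the member higher, at 1.15 ± 0.27 (limma, adjusted p = 0.0181). CPI203 cells had 8 members lower than IRAKi cells and 0 higher, where 2.96% of all genes were lower and 2.78% higher. These were TRIM22, DTX3L, SAMD9L, EIF2AK2, PARP14, PARP9, USP18 and IFIH1. These comparisons also differ in time label, 24 h against 6 h. Without the OCI-LY10 IRAKi array 9 and 2 members were called, all lower. Without OCI-LY3, OCI-HBL1 or OCI-LY10 the first count was 6, 13 and 8 and the second 0 each time. The shares of all genes in these refits are not given.

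The combined effect was tested against the sum of the single effects by an interaction term. With limma 0 of 38 members passed, where 0.00762% of all genes did, and 9 had an unadjusted p under 0.05, against 8.27%. The median of the term was 0.29, against -0.02 over all genes. DTX3L and PARP9 had terms of -0.91 ± 0.31 and -0.77 ± 0.28, lower in Combo than the sum, and OAS3, IFI44L and TRIM22 had terms of 1.42 ± 0.36, 1.88 ± 0.62 and 0.73 ± 0.23. Adjusted p for these 5 lay between 0.44 and 0.506 in limma. IFI44L was below the filter level on every OCI-LY3 array and, at 4.16 and 3.81, on the CPI203 and IRAKi arrays of OCI-LY10, which limits its term. The term also uses the IRAKi arrays, labelled 6 h against 24 h for Control, so drug and time cannot be told apart in it.

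The levels of these genes differed widely between the lines. The 4 arrays of a line are 1 line under 4 treatments, so a test between lines speaks of these 3 lines only. The median range of the 3 line means was 1.65 on the log2 scale, against 0.61 over all genes tested, and 16 members spanned at least 2, against 8.61% of all genes. OCI-LY3 had the lowest mean for 23 members, against 31.5% of all genes. OCI-HBL1 had it for 12, against 34.0%, and OCI-LY10 for 3, against 34.5%.

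**Figure D5:**
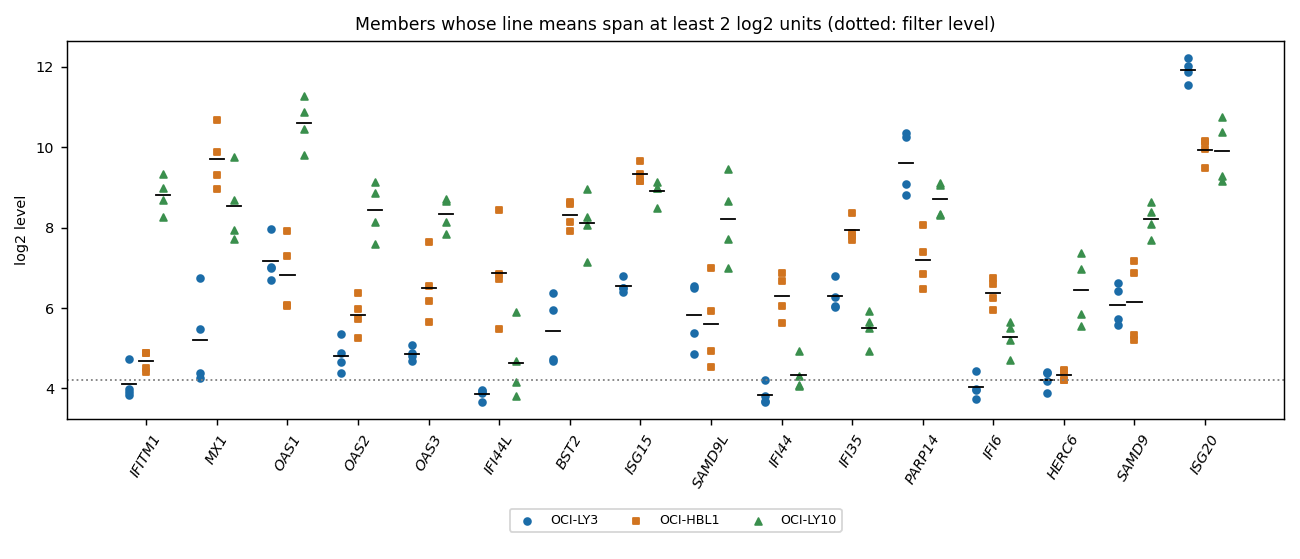
Log2 level on the 4 arrays of each line (symbols) and their mean (bars) for the 16 members whose line means span at least 2; the dotted line is the filter level of 4.20, and levels are not comparable between genes. IFITM1 and OAS1 stand high in OCI-LY10, IFI44 and IFI44L in OCI-HBL1, and ISG20 and PARP14 in OCI-LY3.

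OCI-LY3 against OCI-HBL1 gave 7 members higher and 16 lower, where 25.1% of all genes were higher and 22.2% lower. MX1 ranged from 4.25 to 6.76 in OCI-LY3, against 8.97 to 10.69 in OCI-HBL1, a difference of -4.50 ± 0.33 without overlap (limma, adjusted p = 3.54e-06). ISG15 ranged from 6.39 to 6.79 in OCI-LY3, against 9.16 to 9.66 in OCI-HBL1, a difference of -2.79 ± 0.16 (limma, adjusted p = 6.49e-07). All 7 tested members with other roles were lower in OCI-LY3, and IFI44 and IFI44L were below the filter level on its 4 arrays. By contrast all 3 ADP-ribosylation genes were higher in OCI-LY3, PARP14 by 2.43 ± 0.17 (limma, adjusted p = 2.43e-06).

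OCI-LY10 against OCI-HBL1 gave 15 members higher and 8 lower, where 22.8% of all genes were higher and 25.8% lower. Scaled to the spike-ins the split was 12 higher and 13 lower, with the median difference of all genes at -0.31. The share of all genes called under that scaling is not given. IFITM1 ranged from 8.26 to 9.35 in OCI-LY10, against 4.40 to 4.89 in OCI-HBL1, a difference of 4.15 ± 0.22 (limma, adjusted p = 3.44e-07). OAS1 ranged from 9.81 to 11.27 in OCI-LY10, against 6.05 to 7.91 in OCI-HBL1, a difference of 3.78 ± 0.20 (limma, adjusted p = 3.44e-07). IFI35, a leucine zipper protein, ran the other way, at 4.94 to 5.94 in OCI-LY10 against 7.70 to 8.37 in OCI-HBL1. OCI-LY3 against OCI-LY10 gave 5 members higher and 20 lower, where 26% of all genes were higher and 20.6% lower. OAS2 and OAS3 differed by -3.63 and -3.48 between these lines, and ISG20 by 2.01.

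The other genes of the pathway were counted in the same fit, in which 16.7% of all genes fell and 15.4% rose with Combo, and 6.21% fell and 6.92% rose with CPI203. Of 9 interferon genes with a probe set 0 passed the filter, and IFNB1 lay between 3.60 and 4.25. The highest value came from the OCI-LY10 Combo array, the only one above the filter level. Of 9 receptor and kinase genes, 0 changed with CPI203, and IFNLR1, a receptor chain for interferon lambda, was the member that fell with Combo (-0.89 ± 0.28, limma, adjusted p = 0.034). Of 6 interferon regulatory factors, IRF5 and IRF2 fell with both treatments, by 1.32 and 1.43 with Combo and by 1.35 and 1.16 with CPI203. IRF1, an activator of the same promoters, did not pass, with 0.16 ± 0.29 in Combo and -0.08 ± 0.29 in CPI203 cells.

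Nucleic acid sensors and adaptors fell in 9 of 12 with Combo and in 5 of 12 with CPI203, and 0 rose, where 16.7% of all genes fell with Combo and 6.21% with CPI203. The DNA sensor gene AIM2 fell by 1.45 with Combo, MYD88 by 1.17 and UNC93B1, a chaperone of Toll-like receptors, by 1.04. In CPI203 cells UNC93B1, MYD88 and the DNA sensor gene CGAS fell by 0.82, 0.72 and 0.85. Of 34 further genes induced by type I interferon, 12 fell and 5 rose with Combo, and 6 fell and 0 rose with CPI203; the 5 that rose are a share near the 15.4% of all genes that rose with Combo. Of 9 genes typical of interferon gamma, 4 fell with Combo and 3 with CPI203, and 0 rose. TRIM14, an adaptor of antiviral signalling, fell by 1.74 with Combo and by 1.70 with CPI203, and APOBEC3G, a cytidine deaminase that restricts retroviruses, fell by 1.02 with Combo and by 0.98 with CPI203. Of 7 negative regulators, PIAS1 and SOCS1 rose with Combo, by 0.72 and 0.56, and the phosphatase gene PTPN6 fell by 1.53. SOCS1 had 6.76, 4.54 and 7.78 in Combo, against 6.47, 3.49 and 7.45 in Control. Its largest rise was in OCI-HBL1, where the Control array was below the filter level. With CPI203, PIAS1 rose by 0.45. With IRAKi 0 genes of these lists passed in limma.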

How the data were processed

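RNA of 12 samples, extracted with Trizol and hybridised as biotin-labelled cRNA, was measured on 1-colour Affymetrix arrays. The authors deposited log2 levels per probe set, made with RMA in Affymetrix Expression Console 1.1 per the submitters' processing notes. RMA sets the arrays to 1 distribution, so a shift of all genes cannot be seen in these values; the sources used here name neither the probe library nor the genome build. Arrays give no read depth, and their number limits the precision.

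Of 49386 probe sets, 45253 had 1 gene in the platform annotation, 1327 several and 2800 none, and 99.82% of the first had a symbol matched to RefSeq. Each of 18239 genes was read from its probe set of highest mean level, and 5119 genes failed the filter. Treatments and cell lines were fitted in limma 3.58.1 (R 4.3.3) with cell line as a block, which the labels give as the pairing, leaving 6 residual degrees of freedom. The script was tested on simulated data. Tables and figures were made with pandas 2.3.3 and matplotlib 3.10.9.

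The members and lists were chosen with earlier results of these data known. Levels on every array are given for up to 6 called members per direction of each main comparison, by lowest adjusted p, and for IRF9, IRF7, ISG15, MX1 and IFIT2; of other lists, up to 3 called genes per comparison are named, and IRF1 and IFNB1. Alternatives changed the filter, the probe set, the scaling, the variance model, the block and the arrays included.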

Additional observations from a re-analysis of the deposited data

Results flagged for a closer look

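OASL had differences of opposite sign in different lines with all 3 treatments. IFIT2 did so by value only, because its OCI-HBL1 levels lay near background. OASL, averaged over the 3 treated arrays and set against Control on the log2 scale, was higher by 0.217 in OCI-LY3, and had differences of -1.08 in OCI-HBL1 and -0.437 in OCI-LY10, with each treated array on the side of its mean. IFIT2 was higher by 0.478 in OCI-LY3 and 1.19 in OCI-LY10, with a difference of -0.273 in OCI-HBL1; its OCI-LY3 IRAKi array differed from Control by only 0.000883. IFIT2 was above the filter level of 4.20 on 0 of 4 OCI-HBL1 arrays and on 1 of 4 OCI-LY3 arrays, so its difference in OCI-HBL1 lies between values near background and gives no direction there. OASL in OCI-LY3 differed from Control by only 0.06 to 0.47, at levels of 4.70 to 5.16, not far above the filter level. Each line has 1 Control array, which enters all 3 differences, and the difference between lines was not tested.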

How the results depend on the processing

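No member that was called reversed under any alternative. With no replicate block, that is without pairing by cell line, the members called numbered 0 for CPI203 against Control, 4 for Combo against Control, and 0 each for Combo against CPI203, Combo against IRAKi and CPI203 against IRAKi, since differences between lines then enter the error. Fitting only the groups compared, which leaves fewer arrays, gave 11 for CPI203 against Control, 10 for Combo against IRAKi and 5 for CPI203 against IRAKi. Leaving out 1 line at a time gave 7 to 8 for CPI203 against Control, 15 to 21 for Combo against Control, 0 to 0 for Combo against CPI203, 6 to 13 for Combo against IRAKi and 0 to 0 for CPI203 against IRAKi. Scaling to the poly-A spike-ins gave 32 for Combo against Control, where the median change of all genes was -0.48. The counts here are of members only, and the share of all genes called under each alternative is not given. Without the OCI-LY10 IRAKi array the counts were 9 for Combo against IRAKi and 2 for CPI203 against IRAKi, and without probe sets that can match several transcripts the last was 4. The call for PARP9 in Combo against CPI203 did not hold with the mean of its probe sets (-0.54). The called values numbered 138, 67 between treatments and 71 between lines. Of the 138, 137 stayed called with cyclic loess, 136 with no filter and 128 with spike-in scaling. With the mean of the gene's probe sets 126 did, and without the OCI-LY10 IRAKi array 118. Of the 67 between treatments, 30, 34 and 28 stayed called without OCI-LY3, OCI-HBL1 or OCI-LY10, and 4 without the block. Of 119 that could be read without probe sets matching several transcripts 110 stayed called, and of 67 in the fit of only the groups compared 42 did. Members near the filter level have little signal over background, which limits IFIT1, IFIT2, IFIT3, IFI44 and IFI44L most.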

Other observations

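Genes typical of interferon gamma, such as chemokines and antigen-presentation regulators, included 9 that were tested. With Combo 4 of the 9 fell, with CPI203 3 fell, and 0 rose in either; 16.7% and 6.21% of all genes fell in these comparisons. GBP1, a guanylate-binding GTPase, changed by -2.05 ± 0.23 with Combo and by -2.35 ± 0.23 with CPI203 (limma, adjusted p = 0.00028 and 0.00102). ICAM1, an adhesion molecule, changed by -1.86 ± 0.24 with Combo and by -0.86 ± 0.24 with CPI203 (limma, adjusted p = 0.000521 and 0.0444). Combo was lower than CPI203 alone for ICAM1, by 1.00 ± 0.24, and for CIITA, the master activator of MHC class II genes, by 0.87 ± 0.14 (limma, adjusted p = 0.0484 and 0.0134). These were the 2 calls among the 9, where 2.71% of all genes tested were lower in Combo than in CPI203 cells and 1.96% higher.

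The DNA sensor gene AIM2 was lower in Combo than in CPI203 cells, with a difference of -1.27 ± 0.14 (limma, adjusted p = 0.00555). It was the 1 call among 12 nucleic acid sensors and adaptors, where 2.71% of all genes tested were lower and 1.96% higher. Of the 34 further genes induced by type I interferon, 2 were lower and 2 higher in this comparison.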
